A study of Homo sapiens with 2 samples.

Results

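The mitochondrial ribosomal protein genes are described here in HCT15 cells, a long-established line from a human colorectal adenocarcinoma. One culture was edited with ARID3B-Cas9, that is Cas9 and an ARID3B guide RNA (genotype ARID3B knockout), and the other, the control, is labelled Ctrl, with no further description of what it received. Each culture gave 1 Affymetrix array, both in RPMI with fetal bovine serum, and the sources used here do not say whether the edited cells are a clone or a pool. Members were the probe sets with exactly 1 gene symbol in the platform annotation that starts with MRPL or MRPS and a digit, with the brightest probe set taken for each gene. The rule found 77 genes among 19775 with a single-symbol probe set, measured by 142 probe sets. Of these, 75 are protein-coding, 48 named for the large and 27 for the small subunit. The other members were the antisense RNA MRPL20-AS1 and the pseudogene MRPL45P2, which are kept apart. All 75 coding genes lay on both arrays above 4.59, the median over all probe sets but the controls. This median is used as a floor, which a gene had to reach on at least 1 array to be compared. MRPL45P2 lay under that floor on both arrays, at 2.15 and 2.03.

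Mitochondrial ribosomes translate the few proteins encoded by mitochondrial DNA, all of them subunits of the respiratory chain and ATP synthase. Their RNAs come from the mitochondrial genome, whereas all their proteins come from nuclear genes, are made in the cytosol and are imported. A part of these proteins has counterparts in the bacterial ribosome and the rest is specific to mitochondria. In colorectal cancer cells, as in other proliferating cells, the nuclear genes for this machine are broadly expressed.

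Promoter sequences of 67 coding members were matched in RefSeq (GRCh38.p14, 250 bases before to 50 after each start). Nuclear genes for mitochondrial proteins are known targets of NRF1, of the ETS factor GABP and of YY1. Their short words were searched on both strands, with the E-box of MYC and related factors beside them. The ETS word CCGGAAG was in a promoter of 29 of the 67 members (43.3%), against 26.4% of the genes as bright as the members, 21.5% of all compared genes and 10.3% of all 35116 promoter windows. The YY1 word AAGATGGC was in 20 of 67 (29.9%), against 8.41%, 6.22% and 2.89%. The NRF1 word, the 10 capital letters in the MRPL17 window printed below, was in 1 of 67 (1.49%), against 3.34%, 2.61% and 1.24%, and the E-box CACGTG in 9 of 67 (13.4%), against 13.8%, 12.6% and 7.26%. A word match is a description of these letters and not of a bound site.

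The windows below are of members that held both the ETS and the YY1 word and lay at opposite ends of the differences between the arrays, and of the only member with the NRF1 word. MRPL20 and MRPL52 were among the lowest members and MRPL38 among the highest. Capitals mark the words, in either orientation, and each window is printed 5′ to 3′ on the strand of its gene (chr1:1407244-1407543, minus; chr14:22829637-22829936, plus; chr17:75904835-75905134, minus; and chr11:6683291-6683590, minus).
MRPL20: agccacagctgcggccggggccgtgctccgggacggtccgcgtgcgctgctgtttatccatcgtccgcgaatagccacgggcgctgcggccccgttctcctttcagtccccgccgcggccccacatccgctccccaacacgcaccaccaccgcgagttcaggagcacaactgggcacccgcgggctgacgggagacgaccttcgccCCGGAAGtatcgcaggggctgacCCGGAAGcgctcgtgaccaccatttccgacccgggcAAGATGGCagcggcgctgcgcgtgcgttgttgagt
MRPL52: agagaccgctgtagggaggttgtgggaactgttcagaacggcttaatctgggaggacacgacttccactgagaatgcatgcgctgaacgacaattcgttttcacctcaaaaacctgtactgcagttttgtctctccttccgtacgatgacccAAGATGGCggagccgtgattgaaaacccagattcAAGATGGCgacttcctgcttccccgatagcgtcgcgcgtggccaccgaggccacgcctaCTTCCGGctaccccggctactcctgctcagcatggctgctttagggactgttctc
MRPL38: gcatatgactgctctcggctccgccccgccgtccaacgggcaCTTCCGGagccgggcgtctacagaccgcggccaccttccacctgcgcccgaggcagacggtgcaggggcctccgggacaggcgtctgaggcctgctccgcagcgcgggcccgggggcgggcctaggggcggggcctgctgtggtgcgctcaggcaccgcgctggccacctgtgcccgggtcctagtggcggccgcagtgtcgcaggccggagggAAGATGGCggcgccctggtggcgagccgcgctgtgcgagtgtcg
MRPL17: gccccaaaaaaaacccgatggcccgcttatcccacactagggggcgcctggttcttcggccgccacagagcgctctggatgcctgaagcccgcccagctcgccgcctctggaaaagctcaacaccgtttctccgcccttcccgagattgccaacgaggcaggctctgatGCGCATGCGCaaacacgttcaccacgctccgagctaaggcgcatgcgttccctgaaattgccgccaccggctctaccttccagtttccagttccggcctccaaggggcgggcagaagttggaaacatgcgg

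ARID3B itself stood at 6.09 on the knockout-labelled array and 5.12 on the control array, which goes against a loss of the transcript. An edited gene can still be transcribed, and all directions rest on the labels. Of 12 colorectal epithelial markers 9 reached the floor, with EPCAM at 12.2 on both arrays, while KRT20, CDH17 and LGALS4 were under it on both. Among markers of other cell types, 2 of 3 for leukocytes reached the floor, CD14 (6.54 and 6.51) and CD3E (4.87 and 4.71). So did 1 of 3 for endothelium, PECAM1 (5.73 and 5.55), and 2 of 4 for fibroblasts, COL1A1 (7.12 and 6.87) and DCN (4.61 and 4.51). Another COL1A1 probe set at the floor differed by -2.47 (log2, knockout-labelled minus control). The epithelial CDX2 (6.91 and 6.27), CDX1 (5.62 and 5.49) and VIL1 (5.45 and 5.66) were no brighter than the brightest COL1A1 probe set. Levels of different probe sets are not strictly comparable. PTPRC, VWF, CDH5, COL3A1 and PDGFRB were under the floor on both arrays. Neither group was replicated, so no difference could be tested and each describes these 2 arrays alone. Differences are log2 values of the knockout-labelled minus the control array, as normalised by the authors.

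In their brightest probe sets, the mitochondrial ribosomal protein genes stayed within 2-fold of the control. Dimmer probe sets of MRPL39 (2.17) and MRPS30 (-1.07) that reached the floor differed by more. The members' differences in the brightest probe sets ran from -0.76 for MRPL20 to 0.87 for MRPL2. Their median was -0.07, with a middle 50% from -0.30 to 0.12. By these, no member was at least 2-fold lower or higher, where 3.79% of all 12841 compared genes were lower and 1.05% were higher by that much. Among the 4686 genes as bright as the members (mean of both arrays 7.87 to 11.7) these shares were 2.03% and 1.11%. At 1.5-fold, 7 of 75 members were lower and 2 higher, against 10.5% and 5.83% of all genes and 8.17% and 6.25% of the genes as bright. The spread of the members' differences (scaled median absolute deviation) was 0.32, beside 0.35 in all compared genes.

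**Figure D1:**
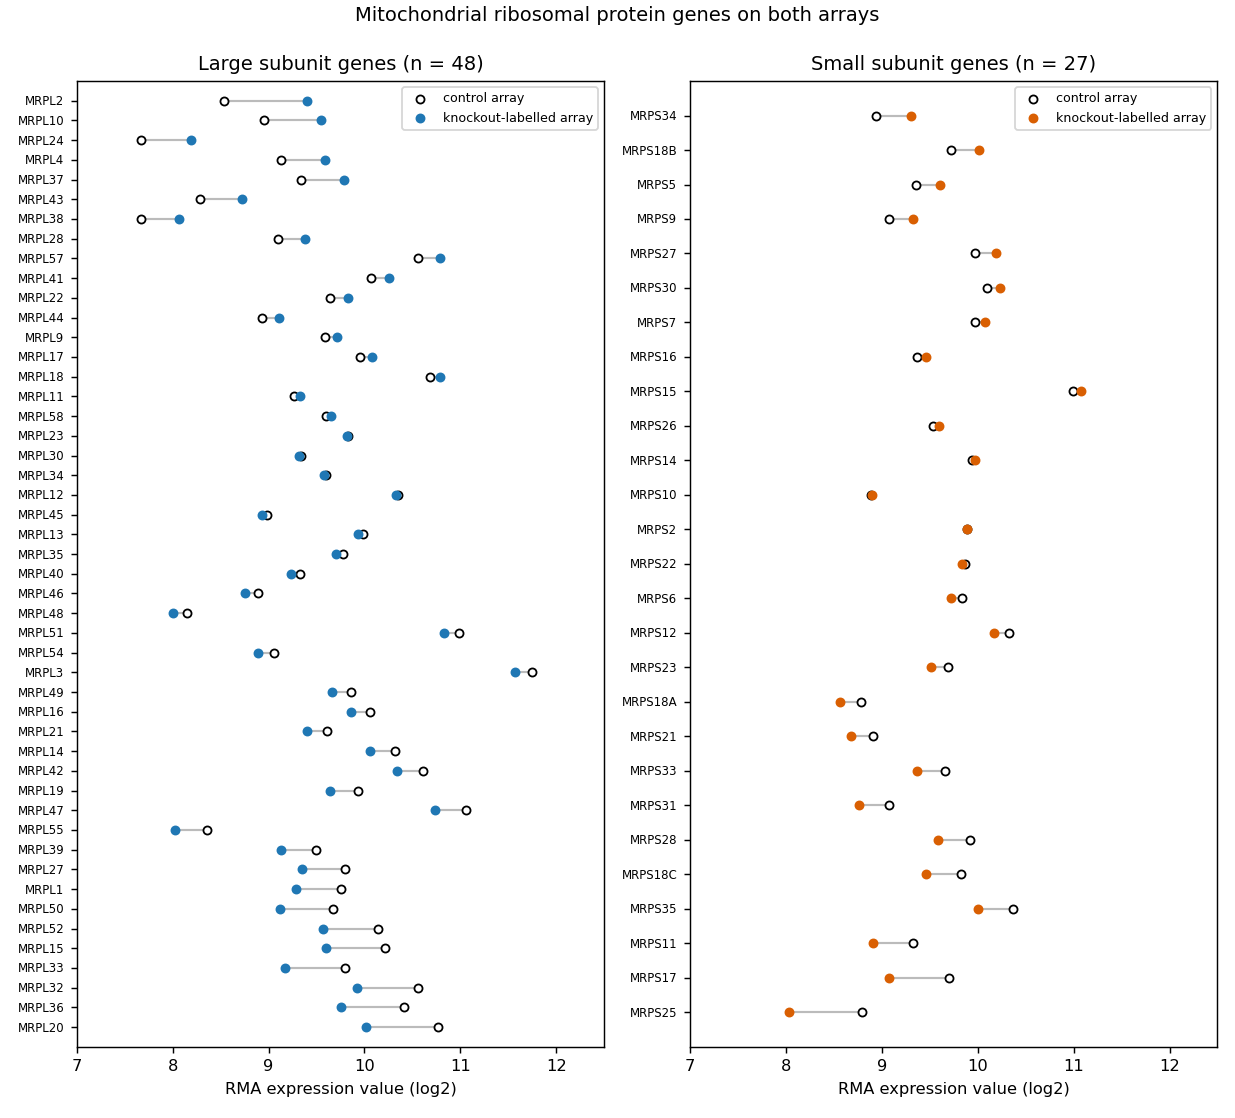
RMA expression value (log2, x axis) of each coding member on the control array (open circle) and the knockout-labelled array (filled circle), sorted by difference within the large (left, 48 genes) and small subunit (right, 27 genes). MRPL2 has the largest difference to the right (0.87) and MRPL20 and MRPS25 the largest to the left (-0.76 and -0.76); levels of different genes come from different probe sets and are not comparable.

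Slightly more members were lower than higher. In all, 45 of 75 lay below 0 (60%), 29 above and 1, MRPS2 of the small subunit, had the same value of 9.88 on both arrays. The share of all compared genes below 0 was 45.1%, and of the genes as bright 47.7%. The median of all compared genes was 0.04, so that the members' median minus it was -0.11. With 1 array per group this gap could not be tested.

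**Figure D2:**
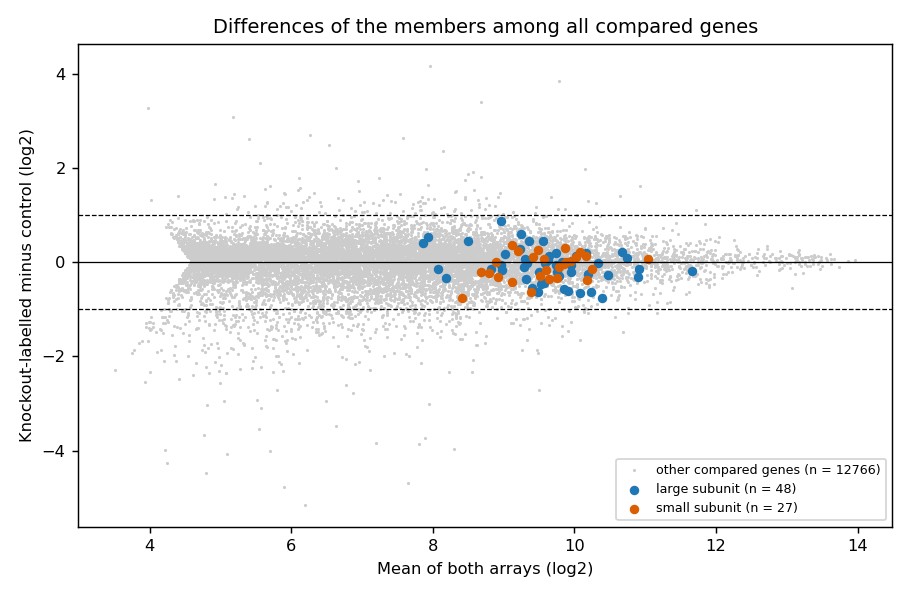
Difference between the arrays (log2, y axis) against the mean of both (log2, x axis) for all compared genes (grey) and for members of the large (blue) and small subunit (orange). Dashed lines mark 2-fold, and all 75 members lie between them, in the range of means from 7.87 to 11.7.

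The large subunit holds the peptidyl transferase centre and the small subunit decodes the messenger RNA. Of the 48 large subunit genes 31 were below 0 and 17 above, with a median of -0.08 and a range from -0.76 to 0.87. Of the 27 small subunit genes 14 were below 0 and 12 above, with a median of -0.03 and a range from -0.76 to 0.36. The large subunit's median minus the small subunit's was -0.05. The small subunit's range lay within that of the large subunit, which reached higher. Past 1.5-fold lay 5 large subunit genes downward and 2 upward, and 2 small subunit genes downward and none upward. In structures of the human mitochondrial ribosome, MRPS18A and MRPS30 sit in the large subunit despite their symbols. With these moved, the subunits held 50 and 25 genes and both medians kept the values -0.08 and -0.03.

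Both members at least 1.5-fold higher were in the large subunit. MRPL2, a conserved protein next to the peptidyl transferase centre, stood at 9.40 on the knockout-labelled array and 8.53 on the control array, 1.82-fold higher (0.87). Its second probe set differed by 0.81. MRPL10, which anchors the stalk where translation factors bind, stood at 9.54 and 8.96, a difference of 0.59 or 1.5-fold. MRPL10 rests on a single probe set.

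Behind them came a group between 0.28 and 0.52. MRPL24, a protein at the exit of the peptide tunnel, had values of 8.20 on the knockout-labelled array and 7.67 on the control array (0.52). MRPL4, which lines that tunnel, had 9.58 and 9.13 (0.45). The mitochondria-specific proteins MRPL37 (9.78 and 9.34), MRPL43 (8.72 and 8.28) and MRPL38 of the central protuberance (8.07 and 7.66) differed by 0.44, 0.44 and 0.41. MRPS34 led the small subunit with 9.30 and 8.94 (0.36), followed by MRPS18B with 10.0 and 9.73 (0.29) and, in the large subunit, by the conserved MRPL28 with 9.38 and 9.09 (0.28). All of these are less than 1.5-fold. For MRPL4 its dimmest probe set differed the other way, at 7.17 and 7.88, as did that of MRPL43, at 5.52 and 5.81, and for MRPL38 the second one differed by 0.

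Of the 7 members at least 1.5-fold lower, 5 were in the large subunit. MRPL20, whose bacterial counterpart binds ribosomal RNA early in assembly, stood at 10.0 on the knockout-labelled array and 10.8 on the control array, 1.69-fold lower (-0.76). MRPL36 had values of 9.75 and 10.4 (-0.66). MRPL32, whose precursor is matured by the m-AAA protease of the inner membrane, had 9.92 and 10.6 (-0.64). MRPL33 had 9.17 and 9.80 (-0.63) and MRPL15 had 9.60 and 10.2 (-0.62). Each of these 5 genes had only 1 probe set at the floor.

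In the small subunit, MRPS25 and MRPS17 were lowest. MRPS25, specific to mitochondria and mutated in a mitochondrial encephalomyopathy, stood at 8.03 on the knockout-labelled array and 8.79 on the control array, 1.69-fold lower (-0.76). Its other probe sets, at 5.97 against 6.59 and 5.66 against 6.23, were lower by similar amounts. MRPS17, a conserved ribosomal RNA-binding protein, had values of 9.08 and 9.70 (-0.63). These complete the 7 members at least 1.5-fold lower.

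The next lowest members were in the large subunit again. MRPL52 had values of 9.57 on the knockout-labelled array and 10.1 on the control array (-0.57), with -0.18 in its second probe set. MRPL50 had 9.12 and 9.67 (-0.55), and its second probe set differed by -0.38. MRPL1, part of the stalk on the side where transfer RNA leaves, had 9.29 and 9.76 (-0.47). Among the 10 lowest members, MRPS25, MRPL50 and MRPL52 are those with more than 1 probe set at the floor, and in all 3 these were lower throughout.

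Members within 1 functional region did not differ alike. In the stalk, MRPL10 was higher (0.59), while MRPL11 (9.33 and 9.26) differed by 0.07 and MRPL12 (10.3 and 10.4), which has also been found to bind the mitochondrial RNA polymerase, by -0.03. Around the tunnel exit, MRPL24 (0.52), MRPL22 (0.19) and MRPL17 (0.12) were above 0, and MRPL23 (-0.01), MRPL45 (-0.05) and MRPL47 (-0.32) below. MRPL45 attaches the ribosome to the inner membrane, and its values were 8.93 and 8.99. In the central protuberance, MRPL38 was above 0 and MRPL40 (-0.10), MRPL46 (-0.14) and MRPL48 (-0.14) were below. MRPS12, at the decoding centre, had values of 10.2 and 10.3 (-0.15), with -0.73 in its second probe set.

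The MRPS18 genes encode 3 related proteins, each in its own place in the ribosome, and they differed in direction. MRPS18B, in the small subunit, was at 10.0 on the knockout-labelled array and 9.73 on the control array (0.29, and 0.40 in its second probe set). MRPS18C, the counterpart of bacterial S18, was at 9.46 and 9.83 (-0.36). MRPS18A, in the large subunit, was at 8.57 and 8.79 (-0.22, and -0.31 in its second probe set). MRPS30, the other large subunit protein with a small subunit symbol, was at 10.2 and 10.1 (0.13). Its other probe sets differed by -0.72 and -1.07, the latter at 5.63 and 6.70. KGD4, formerly MRPS36 and now known as a component of the oxoglutarate dehydrogenase complex, is outside the symbol rule and differed by -0.06 (9.63 and 9.70).

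Conserved and mitochondria-specific proteins gave similar medians. The 45 members with a bacterial counterpart had a median of -0.05, with 27 below 0, and the 30 specific members had a median of -0.12, with 18 below 0, which is 60% in both. Past 1.5-fold lay 6 conserved members downward and 2 upward, and of the specific members MRPS25 downward and none upward. With probe sets that can match several transcripts left out, the median of the specific minus that of the conserved members was 0.00073, against -0.06 here.

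Some members were measured by more than 1 probe set. In 32 coding members the second brightest probe set also reached the floor, and in 20 of them both differed in the same direction (r = 0.24). All probe sets at the floor shared 1 direction in 11 of the 32. Where that second probe set had a mean of at least 6.60, the 75th percentile of all probe sets, the direction was shared in 16 of 20 genes (r = 0.75 across these genes). Where it was dimmer, it was shared in 4 of 12 (r = -0.03). Genes are not independent replicates, and both probe sets of a gene share the RNA and the array. Over all 6297 genes with such a pair, 72.8% shared the direction (r = 0.64). That share is to be set beside the 20 of 32 members, since all genes were not split by brightness.

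For 3 members the brightest and second brightest probe sets went opposite ways, more than 0.5 apart. The brightest probe set of MRPL39 was at 9.13 on the knockout-labelled array and 9.49 on the control array (-0.36), while its second was at 5.87 and, under the floor, 3.70. The brightest and second probe sets of MRPS14 differed by 0.03 and -0.80, and those of MRPS30 by 0.13 and -0.72. Dimmer probe sets at the floor also opposed brighter ones by more than 0.5 in other members, among them MRPL4 (0.45 and -0.71), MRPL43 (0.44 and -0.29) and MRPL42 (-0.34 and 0.33). Which transcripts these probe sets match was not examined. The remaining 43 coding members had 1 probe set at the floor and no such check.

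**Figure D3:**
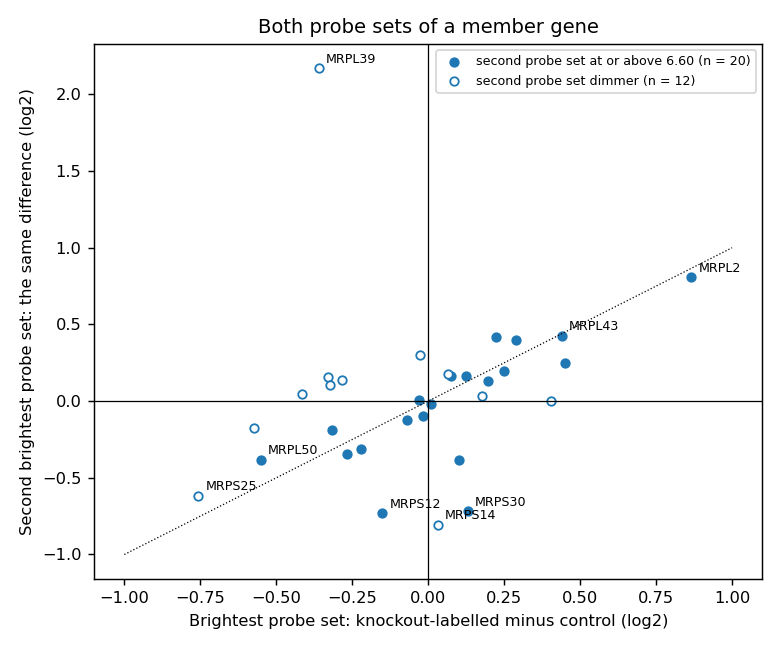
Difference between the arrays (log2) in the second brightest probe set (y axis) against that in the brightest (x axis), 1 point per coding member with both at the floor; filled points have a second probe set with a mean of at least 6.60. MRPL2 (0.87 and 0.81) and MRPL43 (0.44 and 0.43, with a dimmer probe set at -0.29 not shown) lie near the dotted line of equality, and MRPL39 lies farthest from it.

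Among the 67 members with a promoter window, those with the ETS word, the YY1 word or the E-box had lower medians than those without it, and the ranges overlapped. MRPL2 and MRPL10, the members at least 1.5-fold higher, had no such window and are in neither group. These differences between medians were not tested, and 45.1% of all compared genes were below 0. The 29 members with the ETS word had a median difference of -0.16, with 20 below 0, and the 38 without it a median of -0.01, with 19 below 0. With the YY1 word the median was -0.15, with 13 of 20 below 0, and without it -0.03, with 26 of 47 below 0. With the E-box it was -0.20 in 9 members and without it -0.06 in 58. Of the 8 members with both the ETS and the YY1 word 6 were below 0, with a median of -0.19, and they ran from -0.76 (MRPL20) to 0.41 (MRPL38), the extremes whose windows are printed above. MRPL17, with the NRF1 word, stood at 10.1 and 9.96 (0.12).

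**Figure D4:**
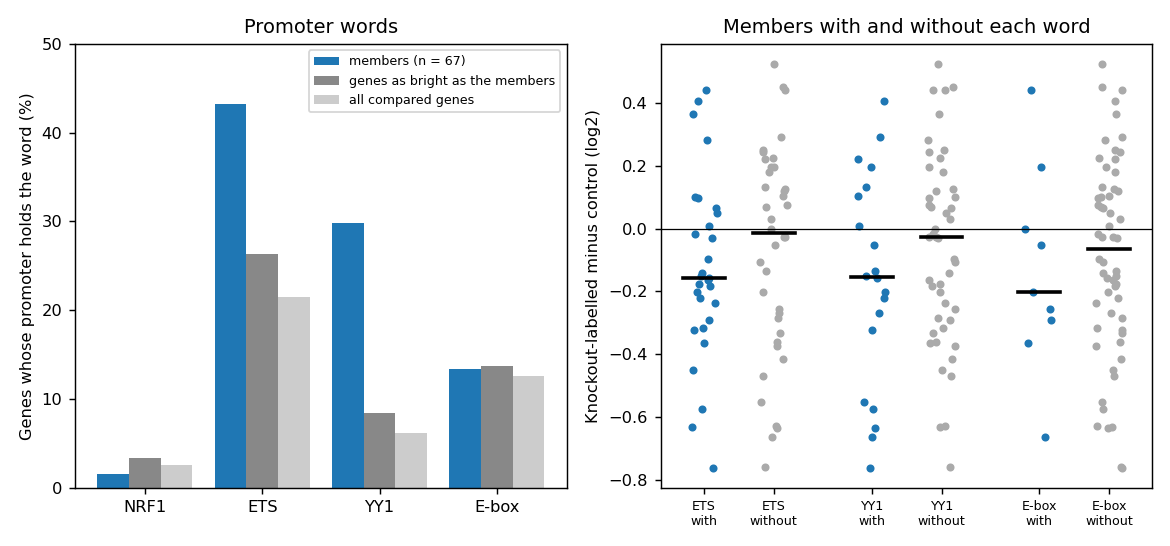
Left, share of genes (%) whose promoter window holds each word, for 67 members, for genes as bright as the members and for all compared genes; right, difference between the arrays (log2) of members with and without a word, with bars at the medians. The YY1 word was in 29.9% of the members and 8.41% of the genes as bright, and members with and without each word overlap.

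Several members share a start region with a gene on the other strand. Starts at most 1000 bases apart and pointing away from each other were found for 26 of the 77 members in the same table. For 17 coding members at least 1 such partner was a compared protein-coding gene outside the list, of which the nearest was taken, and 6 of these pairs differed in the same direction (r = 0.21 over 17 pairs on the same arrays). MRPL32 (-0.64) lies beside PSMA2, a proteasome subunit, with values of 11.7 and 11.5 (0.13). MRPL50 (-0.55) lies beside ZNF189, at 7.08 and 7.95 (-0.87), and MRPL27 (-0.45) beside EME1, a subunit of a DNA endonuclease, at 9.75 and 9.51 (0.25). MRPL46 (-0.14) and MRPS11 (-0.42) form the only such pair of members, and both were lower. The antisense RNA MRPL20-AS1 was at 6.67 on the knockout-labelled array and 7.22 on the control array (-0.55). Its partner by this rule was CCNL2, which went the other way, at 8.71 and 8.45 (0.26). MRPL20, which was also lower, was not such a partner.

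The differences had little relation to gene size, brightness or promoter composition. Across the 75 members, Pearson's r with the logarithm of the gene's length in the genome was -0.12 and with mean expression -0.17, and across 67 members it was 0.15 with the promoter's GC content. These points share both arrays. By chromosome, among chromosomes with at least 2 members, all were below 0 on chromosomes 3 (4 genes), 7 (3), 8 (3), 12 (3), 4 (2), 15 (2) and 21 (2), and all were above on 10 (2) and 16 (2). These groups are small, and 60% of all members were below 0. Chromosomes with more members held both directions, with 3 of 8 below 0 on chromosome 1 and 4 of 8 on chromosome 17. The other genes of these chromosomes were not compared, and no pattern by chromosome was tested.

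Genes for proteins of the same ribosome under other names, with the insertase gene OXA1L beside them, also stayed close to 0 in their brightest probe sets. The small subunit GTP-binding protein DAP3 stood at 10.6 on the knockout-labelled array and 10.4 on the control array (0.22), CHCHD1 at 10.2 and 10.4 (-0.28) and PTCD3 at 9.65 and 9.59 (0.06). The large subunit protein GADD45GIP1 stood at 9.41 and 9.10 (0.31). OXA1L, the insertase that receives new proteins at the membrane, stood at 9.94 and 10.2 (-0.26). None of these 5 passed 1.5-fold. Over all probe sets at the floor, DAP3 ran from 0.12 to 0.565, PTCD3 from -0.57 to 0.06 and GADD45GIP1 from -0.06 to 0.31.

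Assembly and translation factors were spread around 0 as well. Of 26 compared assembly factors 14 were below and 12 above 0, with a median of -0.09 and none past 2-fold. The largest differences were 0.67 for the pseudouridine synthase RPUSD3, -0.64 for MTERF4, which guides ribosomal RNA methylation, -0.59 for the GTPase MTG1 and -0.51 for MTERF3. RPUSD3 and MTERF4 had other probe sets in the opposite direction, to -0.86 and 0.27. MALSU1, whose brightest probe set differed by 0.17, ran from -1.32 to 1.41 over its 4 probe sets, and several other assembly factors also had probe sets in both directions. Of 13 compared translation factors 6 were below and 6 above 0, with a median of 0 and none past 2-fold in its brightest probe set. Another probe set of MTRF1 differed by -1.26, where its brightest differed by -0.24. The elongation factor GFM1 was lower (8.75 and 9.31, -0.56), as was GUF1 (6.85 and 7.51, -0.66). TUFM (11.6 and 11.1, 0.46, but 0.09 in its other probe set) and the ribosome rescue factor MTRFR (8.01 and 7.37, 0.64) were higher.

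Genes for transcription, maintenance and stability of mitochondrial nucleic acids were lower as a list. Of 15 compared genes 11 were below 0, against 45.1% of all compared genes, with a median of -0.53 against 0.04. FASTKD5, which acts in mitochondrial RNA processing, was the only one at least 2-fold lower, against 3.79% of all genes (7.44 on the knockout-labelled array and 8.46 on the control array, -1.02), and none was higher by that much. TFB2M, an initiation factor of the mitochondrial RNA polymerase, was at 8.90 and 9.76 (-0.86). TFAM, which packages mitochondrial DNA, was at 8.84 and 9.66 (-0.82), with all 4 of its probe sets between -1.16 and -0.66. The elongation factor TEFM differed by -0.75, although another probe set of it differed by 0.53, and the helicase TWNK by -0.72. The polymerase POLRMT went the other way (7.71 and 7.38, 0.33). As the mean of each gene's probe sets the list's median was -0.23.

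**Figure D5:**
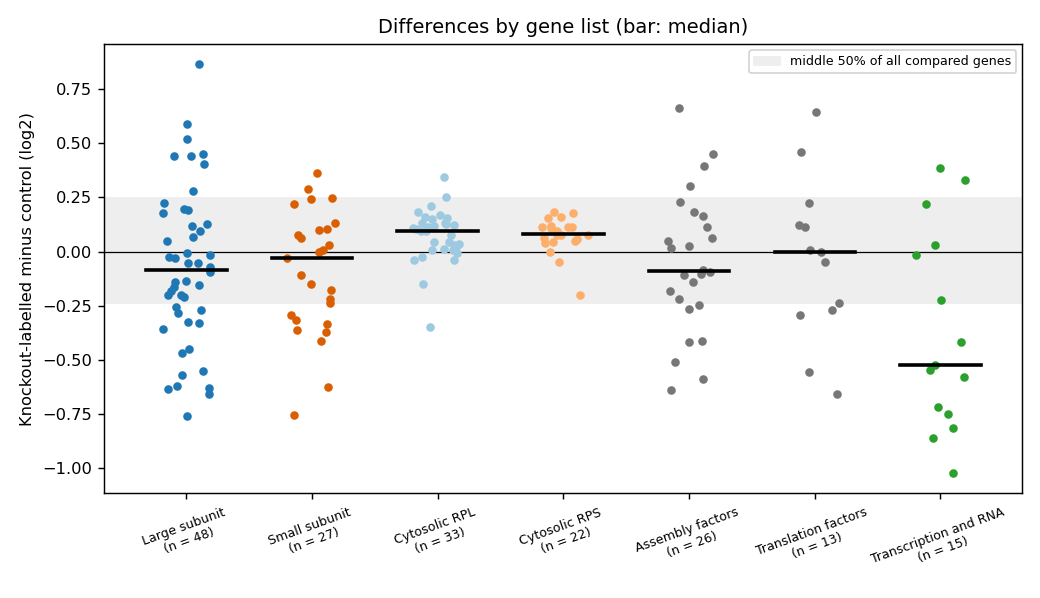
Difference between the arrays (log2, y axis) of each compared gene in 7 lists, with bars at the medians; the grey band holds the middle 50% of all compared genes (-0.24 to 0.25). The medians are -0.08 for the large and -0.03 for the small subunit, and -0.53 for the list of mitochondrial transcription and RNA genes.

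Among 12 compared regulators of nuclear genes for mitochondria, 2 were at least 2-fold lower and 1 higher, against 3.79% and 1.05% of all compared genes. PPARGC1B, a coactivator, was at 5.92 on the knockout-labelled array and 6.97 on the control array (-1.05), but another of its probe sets differed by -0.16. ATF5, a factor of the mitochondrial stress response, was at 4.89 and 6.0 (-1.10), and the stress factor DDIT3 at 10.4 and 6.99 (3.39). ATF4 stood at 12.2 and 11.4 (0.81). The factors whose words were searched differed less in their brightest probe sets. These gave 0.14 for NRF1, -0.23 for GABPA and -0.45 for GABPB1 of GABP, -0.10 for YY1 and -0.33 for MYC. Over all probe sets at the floor, YY1 ran from -0.29 to 0.60, NRF1 from -0.03 to 0.28 and GABPB1 from -0.45 to 0.02.

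Genes named for the cytosolic ribosome spanned a narrower range. They were taken by symbol, RPL or RPS followed by a digit, which also takes in related genes such as RPL10L, RPL22L1, RPL7L1 and RPS27L. The 55 compared genes of this list had a median of 0.09, with 46 above 0, and ran from -0.35 to 0.35. RPL genes had a median of 0.10 and RPS genes of 0.08, so that the subunits of this ribosome were also close. Their spread (scaled median absolute deviation) was 0.08 beside 0.32 in the mitochondrial members, but the brightest of them had means up to 13.9, beyond the 11.7 reached by any member. The members' differences are relative to the other genes. Scaled on 24 probe sets of poly-A spike-ins, whose mean difference was -1.19, all members lay above 0, with a median of 1.12, and 47 were at least 2-fold higher, where 71.2% of all genes were.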

How the data were processed

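The authors deposited log2 values from RMA (version unstated), per the submitters' processing notes. RMA corrects background, sets arrays to 1 distribution (quantile normalisation) and combines each probe set's probes, so that a difference is relative to the rest of the array and dim probe sets are compressed. From 54675 probe sets, 62 of them controls, 41091 had a single symbol in the platform annotation. The 75 coding members were matched to RefSeq (GRCh38.p14) by Entrez identifier and no symbol changed. A further 4 probe sets with a member's symbol beside another were left out.

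Genes were compared in Python 3.11.15 with pandas 2.3.3, by fold thresholds, medians and counts, without tests. The members, lists, thresholds and alternatives were chosen with earlier results of these data known. Named were the 10 highest and 10 lowest members, any past 2-fold, the MRPS18 genes, MRPS30, MRPS36, stalk, tunnel exit and decoding proteins, members whose probe sets were opposed, and up to 4 genes per related list. Other genes were chosen after their values were seen, as were the comparisons with divergent partners, gene length and chromosome. The procedure was tested on simulated data.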

Additional observations from a re-analysis of the deposited data

How the results depend on the processing

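Most summaries moved little. With 64 linear units added, a loess trend removed (span 0.3) or each array centred on its median, no member passed 2-fold. No median of the members or of either subunit moved by over 0.1 in these settings. With no floor, or the floor at the 75th percentile (6.60), the members' values could not change. Every coding member has a mean of at least 7.87, above either floor. The sign of the small subunit's median did change on centring, to 0.0068. Scaled on the cytosolic ribosomal proteins, the medians were -0.17 for all members, -0.18 for the large and -0.13 for the small subunit. Scaled on the poly-A spike-ins, they were 1.12, 1.10 and 1.15, with 0 members below 0 and 47 at least 2-fold higher, and the median of the transcription and RNA list was 0.66. As the mean of probe sets, the large minus small difference of the medians was 0.052 in place of -0.052, and the transcription and RNA list had a median of -0.23. Without probe sets of the kind that may match more than 1 transcript (_s_at, _x_at and _a_at) 42 members were left, with 22 below 0. Of these 42 members 1 was at least 2-fold higher, MRPL39 in its other probe set. The share below 0 was then 52.4% of the members and 47.1% of all compared genes. In the main setting these shares were 60% and 45.1%, so the gap between them was narrower here. The members' median minus that of all compared genes was -0.11 in both settings. At 1.5-fold 7 members were lower and 2 higher, and at 3-fold none was. Of the 20 highest and lowest members, 19 kept their direction as the mean of probe sets, where those with a single probe set could not change. Without probe sets that may match more than 1 transcript, 11 of the 13 left kept it. Only MRPL50 (-0.38), MRPL43 (-0.29) and MRPL4 (-0.71) were then read from another probe set, and MRPL43 and MRPL4 changed direction. Leaving out MRPS36 and the noncoding members changes nothing, since they were already apart. The alternatives for the transcription and RNA list and for conserved against specific members were chosen after seeing the data. No paired analysis was possible because each group has 1 array. The single array per group limits the precision.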
